A study of Mus musculus with 6 samples.

Results

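The S100 genes studied here are 10 mouse genes that encode small calcium-binding proteins, namely S100a1, S100a4, S100a6, S100a8, S100a9, S100a10, S100a11, S100a13, S100a14 and S100a16. They were chosen by symbol from the 52325 Ensembl genes of the deposited table, all 10 were found there, and all 10 passed the low-count filter that left 20684 genes for testing. RNA was sequenced from 6 cell populations sorted from breast tumours of C57BL/6 mice, all of them C3-T mice that carried Elf5-GFP, a reporter in which green fluorescent protein (GFP) stands for expression of the transcription factor gene Elf5. Digested tumours were stained for the leukocyte, endothelial and red cell markers CD45, CD31 and TER119, and GFP then divided the cells into 2 Elf5-positive (Elf5+) and 4 Elf5-negative (Elf5-) libraries. The labels do not spell out the C3-T transgene, its promoter or the age of the mice, and are silent on whether each library is its own animal, so the p-values cover the spread between these libraries, which may be technical. Elf5-positive libraries 1 and 2 and Elf5-negative libraries 2 and 4 carry the code T2 in their titles, and Elf5-negative libraries 1 and 3 the code T1, which the labels do not define. The titles also carry a number, which the labels do not define either. Elf5-positive library 1 shares its title number with Elf5-negative libraries 1 and 2, and Elf5-positive library 2 shares its own with Elf5-negative libraries 3 and 4. The main test took all 6 libraries as separate.

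S100 proteins are small EF-hand proteins that mostly work as pairs. On binding calcium most of them expose a surface that grips a partner such as an annexin, a myosin or p53, and some are also released from cells and bind receptors of innate immunity. In the mammary gland and its tumours they are used as markers of quite different cells. S100a4 is known as a gene of fibroblasts and of motile tumour cells, S100a8 and S100a9 as genes of neutrophils and monocytes, and S100a14 as a gene of epithelia.

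None of the 10 genes passed the test between Elf5-positive and Elf5-negative libraries (edgeR's quasi-likelihood test, Benjamini-Hochberg adjusted p below 0.05 over all genes tested). DESeq2 and limma-voom also called 0 of the 10. Some of the 10 passed in 2 other settings, both described below. These were the scaling to epithelial genes and a fit of the T2 libraries with the title number as a block. The block fit, in which S100a1, S100a4 and S100a14 passed, rests on 2 pairs of libraries. Among all genes tested 0.585% were called higher and 3.79% lower in Elf5-positive libraries, 4.37% in all, so 0 of 10 is near the background. At an unadjusted p below 0.05 edgeR gave 1 of the 10 as higher, S100a1, and 1 as lower, S100a4, against 5.2% and 11.7% of all genes. These same genes were the 2 whose groups did not overlap. Of all genes tested 10.9% had both Elf5-positive libraries above all 4 Elf5-negative ones, and 14.8% had both below. The log2 fold changes of the 10 genes, Elf5-positive over Elf5-negative, ran from -1.01 to 0.93 with a median of 0.12, where the median of all genes was 0.05.

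The libraries themselves differed in cell make-up. The sum of 14 fibroblast markers was 1662 and 1679 CPM (counts scaled to library size and TMM normalization factors) in the Elf5-positive libraries and 17345 to 50292 CPM in the Elf5-negative ones, and 12 of these markers fell. The sum of 20 epithelial genes was 6628 and 8788 CPM in the Elf5-positive libraries and 2232 to 3789 CPM in the Elf5-negative ones, and 11 of them rose. When these epithelial genes set the scale instead, all genes together had a median log2 fold change of -1.48, with 0.087% of genes called higher and 60.7% lower. With that scaling 7 of the 10 S100 genes were called lower and 0 higher, close to the share of all genes, and S100a1, S100a11 and S100a14 did not pass. The part that cell make-up plays in the values below was not tested. In such bulk libraries fewer cells of a type and less RNA per cell cannot be told apart. Elf5-negative library 4 was the shallowest with 9106660 counts, and the remaining 5 held 32602477 to 53694884. The reporter gene Elf5, the check of the sort, was at 77.7 and 137.0 CPM in the Elf5-positive libraries and at 6.93 to 24.7 CPM in the Elf5-negative ones.

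**Figure D1:**
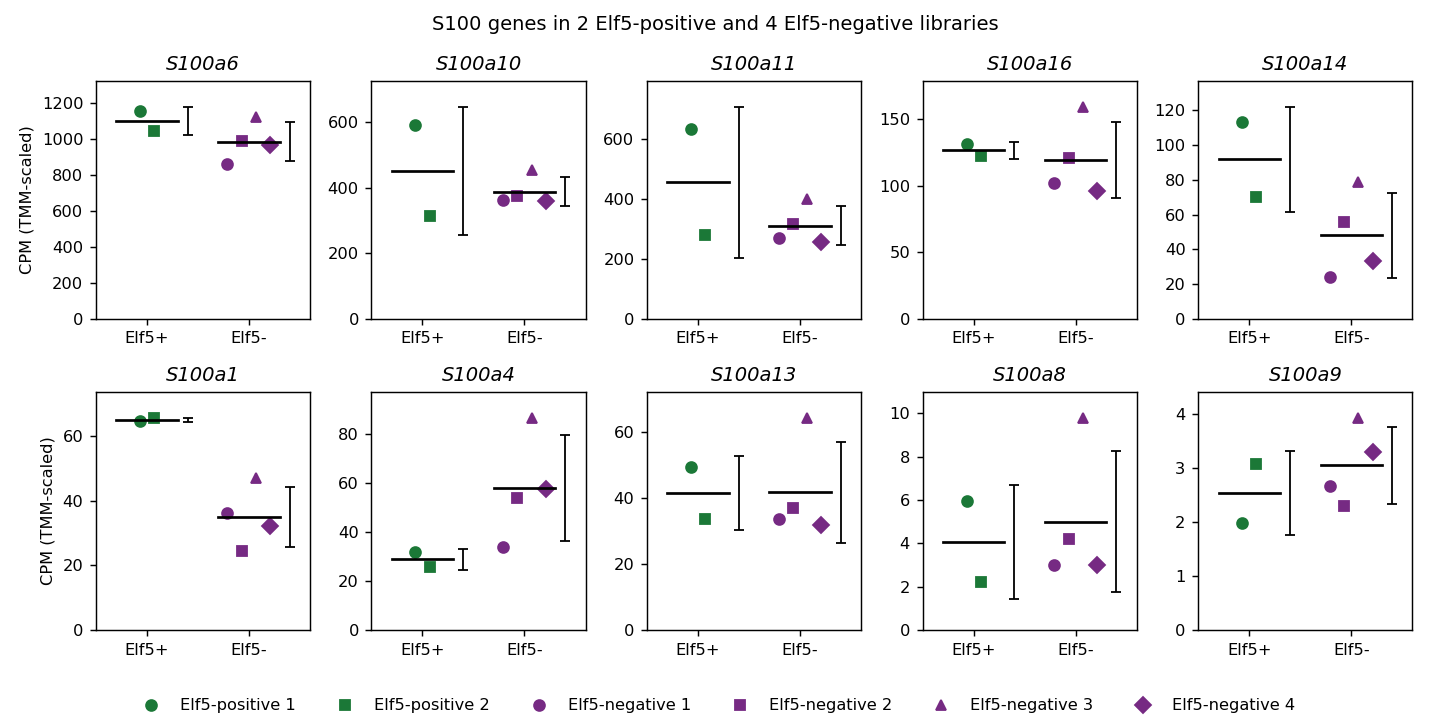
CPM (TMM-scaled, y axis from 0) of each of the 10 S100 genes in the 2 Elf5-positive (green) and 4 Elf5-negative (purple) libraries, with 1 symbol per library, the group mean as a line and the SD as a bar. S100a1 and S100a4 are the only panels of the 10 in which the groups do not overlap, and Elf5-negative library 3 (triangle) is the highest Elf5-negative library in every panel.

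All 10 genes lie on chromosome 3 (GRCm38). Of these, 8 are in one cluster from S100a1 at 90511034 to S100a9 at 90695721, and a pair, S100a11 and S100a10, ends at 93564643. The cluster also holds S100a2, S100a3, S100a5 and S100a7a, which are not among the 10 and are described below. The 2824766 bases between S100a9 and S100a11 hold genes of skin barrier formation, such as the Sprr genes. Of 61 protein-coding genes between the outermost members, S100 genes left out, 29 had no count in any library and 10 could be tested. None of these 10 was called in edgeR. At an unadjusted p below 0.05 in edgeR 2 were lower, against 11.7% of all genes. These were Sprr2a2 and Crct1, both at 2.03 CPM or less in every library. The median log2 fold change of the 10 was -1.41, and most of them were at about 2.05 CPM or less in every library.

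Sequences from 3 places in this cluster are shown because the members beside them, each next to the other among the 10, had unlike values. The first lies between S100a1 and S100a13, which are transcribed in opposite directions, away from a gap of 42 bases between the GENCODE genes (chr3:90514393-90514434, GRCm38.p6, plus strand). These are the 42 bases before the RefSeq start of S100a13. The RefSeq upstream window of S100a1 begins at 90514331, within the GENCODE gene, so the gap is not directly before that start. The others are the 250 bases before the RefSeq starts of S100a4 (chr3:90603520-90603769, plus strand) and of S100a6 (chr3:90612644-90612893, plus strand). S100a4 and S100a6 are 6836 bases apart on the same strand, with S100a5 between them. Sequences are from a table of RefSeq starts (GRCm38.p6) in which 8 of the 10 genes were matched. Capitals mark GGAA, the core that ETS-family factors such as Elf5 recognise, on either strand (TTCC is its reverse).
S100a1-S100a13 gap: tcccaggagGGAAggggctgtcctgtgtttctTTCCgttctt
S100a4: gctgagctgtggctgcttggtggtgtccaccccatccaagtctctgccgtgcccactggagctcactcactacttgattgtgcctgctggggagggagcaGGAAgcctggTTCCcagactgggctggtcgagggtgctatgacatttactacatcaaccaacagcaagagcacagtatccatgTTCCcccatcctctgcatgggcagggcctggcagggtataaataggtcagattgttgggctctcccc
S100a6: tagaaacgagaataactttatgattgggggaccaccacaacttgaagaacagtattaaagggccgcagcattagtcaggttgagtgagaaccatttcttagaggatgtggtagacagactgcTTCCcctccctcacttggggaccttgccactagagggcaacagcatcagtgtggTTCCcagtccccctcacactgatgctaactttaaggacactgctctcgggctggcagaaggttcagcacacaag

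The core GGAA occurred 2 times in the gap, 3 times before S100a4 and 2 times before S100a6. It is common, being held by 38.4% of the windows of 42 bases before all 32851 RefSeq starts and by 93.4% of those of 250 bases. TATAAA, the core of a TATA box, searched on both strands, occurred 1 time before S100a4 and 0 times before S100a6, against 12.4% of all windows of 250 bases. TGANTCA, the AP-1 motif, which reads the same on both strands apart from its middle base, occurred in none of these 3 sequences. Of the other windows of 250 bases before members, it occurred 2 times before S100a11 and 1 time before 1 of the 2 starts of S100a16, and 6.75% of all such windows hold it. These matches describe the letters only.

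S100a1, a calcium sensor best known from heart muscle, was at 64.7 and 65.5 CPM in the Elf5-positive libraries, and at 36.1, 24.6, 47.0 and 32.3 CPM in Elf5-negative libraries 1 to 4. Both Elf5-positive libraries lay above all Elf5-negative ones. The means were 65.1 ± 0.609 CPM (SD, n = 2) and 35.0 ± 9.33 CPM (SD, n = 4). On the log2 scale the difference was 0.89 (SE 0.27, 95% interval 0.26 to 1.52). The adjusted p was 0.126 in edgeR and between 0.103 and 0.284 with 1 library left out. Scaled to epithelial genes, which lowers all genes, its log2 fold change was -0.60.

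S100a13, which takes part in the release of FGF1 and interleukin 1 alpha from cells by a route outside the secretory pathway, was at 49.3 and 33.5 CPM in the Elf5-positive libraries and at 33.5, 37.0, 64.3 and 31.9 CPM in the Elf5-negative ones. The groups overlapped fully, and the log2 fold change was -0.01 (SE 0.34, 95% interval -0.81 to 0.79; edgeR adjusted p = 0.993). Per kilobase of merged exons, S100a1 stood to S100a13 as 1.35 and 2.01 in the Elf5-positive libraries, and as 1.11, 0.685, 0.754 and 1.04 in the Elf5-negative ones. The ratio was thus higher in both Elf5-positive libraries, a difference that was looked for after the values were seen and was not tested. S100a1 alone did not overlap between the groups either.

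S100a4, which binds non-muscle myosin and is also called fibroblast-specific protein, was at 31.9 and 25.9 CPM in the Elf5-positive libraries, and at 34.0, 54.0, 86.8 and 57.7 CPM in Elf5-negative libraries 1 to 4. Both Elf5-positive libraries lay below all Elf5-negative ones, with Elf5-negative library 1 only just above them. The means were 28.9 ± 4.23 CPM (SD, n = 2) and 58.1 ± 21.8 CPM (SD, n = 4). The log2 fold change was -1.01 (SE 0.37, 95% interval -1.86 to -0.15) and did not pass in edgeR (adjusted p = 0.208, and 0.130 to 0.439 with 1 library left out). Scaled to epithelial genes it was -2.47 and passed (edgeR adjusted p = 9.8e-04).

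All 14 fibroblast markers had a log2 fold change below 0, as S100a4 had, and 12 of them fell by more than 3 on the log2 scale. Dcn, a matrix proteoglycan gene, fell by 6.07 on the log2 scale (SE 0.81, edgeR adjusted p = 0.0121), and the 14 markers had a median log2 fold change of -4.68. Dpt, Fap and Pdgfrb, the other markers of smallest p, had log2 fold changes of -5.97, -4.69 and -4.25. The 2 markers that did not pass in edgeR, Fbln2 (-1.28, adjusted p = 0.163) and Pdgfra (-1.24, adjusted p = 0.331), were close to S100a4. Elf5-negative library 1 held the second highest fibroblast sum, 24577 CPM, and the lowest S100a4 of the Elf5-negative libraries. The part of fibroblast RNA in the S100a4 values was not tested.

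**Figure D2:**
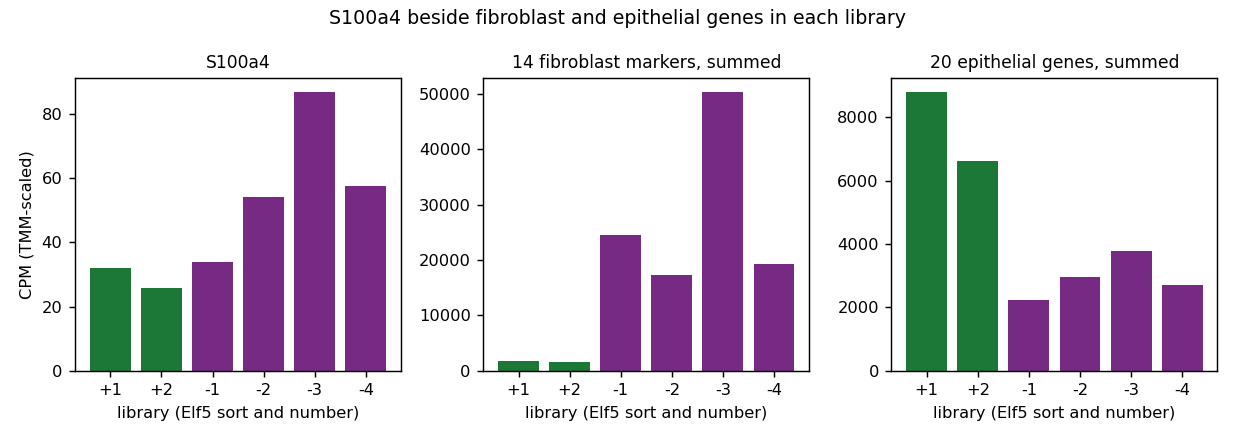
CPM (TMM-scaled, bars from 0) of S100a4, of 14 fibroblast markers summed and of 20 epithelial genes summed, in Elf5-positive libraries 1 and 2 (green) and Elf5-negative libraries 1 to 4 (purple). S100a4 ran from 25.9 to 86.8 CPM, while the fibroblast sum ran from 1662 to 50292 CPM.

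S100a6, or calcyclin, follows S100a4 among the 10 on the chromosome and was the most abundant of the 10 in CPM. It was at 1159.5 and 1047 CPM in the Elf5-positive libraries and at 864, 991, 1124 and 971 CPM in the Elf5-negative ones, and the groups overlapped, with a log2 fold change of 0.16 (SE 0.25, 95% interval -0.43 to 0.75; edgeR adjusted p = 0.824). Per kilobase S100a4 stood to S100a6 as 0.0644 and 0.0579 in the Elf5-positive libraries, and as 0.0920, 0.128, 0.181 and 0.139 in the Elf5-negative ones. This ratio too did not overlap between the groups, was looked for after the values were seen and was not tested. S100a4 alone did not overlap either, and the share of such ratios over all pairs of genes was not computed. Cacybp, which encodes the calcyclin-binding protein, had a log2 fold change of 0.10 (SE 0.23).

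S100a10 and S100a11 are members known as partners of annexins. S100a10, which has lost calcium binding and joins annexin A2 at the cell membrane, was at 591 and 314 CPM in the Elf5-positive libraries and at 362, 375, 454 and 359 CPM in the Elf5-negative ones. The Elf5-positive libraries were thus the highest and the lowest of the 6. The log2 fold change was 0.22 (SE 0.30, 95% interval -0.48 to 0.92), and it was -0.31 without Elf5-positive library 1 and 0.61 without Elf5-positive library 2.

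S100a11, a partner of annexin A1, was at 634 and 278 CPM in the Elf5-positive libraries and at 268, 316, 399 and 256 CPM in the Elf5-negative ones. Elf5-positive library 1 again stood above the other 5, and library 2 lay within the Elf5-negative range. The log2 fold change was 0.56 (SE 0.36, 95% interval -0.28 to 1.39; edgeR adjusted p = 0.530), and it was -0.16 without Elf5-positive library 1. Its processed pseudogene S100a11-ps took at most 3 counts in any library.

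The annexin genes themselves did not pass. Anxa2 differed by -0.17 on the log2 scale (SE 0.40) and Anxa1 by 0.05 (SE 0.36). Per kilobase, the ratio of S100a10 to Anxa2 was 1.21 and 1.40 in the Elf5-positive libraries and 1.09, 0.744, 0.975 and 1.19 in the Elf5-negative ones. Both Elf5-positive libraries were higher, with Elf5-negative library 4 just under Elf5-positive library 1. The difference of the mean log2 ratios was 0.40 (exact permutation test, two-sided, p = 0.133, and 0.4 adjusted over the 3 ratios tested). With 15 ways to split the libraries this test cannot go below 0.0667.

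The ratio of S100a11 to Anxa1 was 4.20 and 1.87 in the Elf5-positive libraries and 1.81, 2.74, 1.84 and 2.65 in the Elf5-negative ones, and the groups overlapped. Its mean log2 difference was 0.34 (exact permutation p = 0.4, adjusted 0.6). Per kilobase of merged exons, S100a11 RNA was thus above Anxa1 RNA in every library. The ratio was not computed with the length of the longest transcript.

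S100a14 and S100a16 lie side by side, 8416 bases apart. S100a14, an epithelial member, was at 113 and 70.3 CPM in the Elf5-positive libraries and at 24.0, 55.8, 78.7 and 33.5 CPM in the Elf5-negative ones. The groups overlapped because Elf5-negative library 3 lay above Elf5-positive library 2. The log2 fold change was 0.93 (SE 0.45, 95% interval -0.11 to 1.98; edgeR adjusted p = 0.362), which was 0.55 without Elf5-positive library 1, 1.28 without Elf5-negative library 3 and -0.52 when scaled to epithelial genes. The 20 epithelial genes had log2 fold changes from 0.66 to 2.07 with a median of 1.51, and S100a14 lay near the low end of that range.

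S100a16, a widely expressed member, was at 131 and 122 CPM in the Elf5-positive libraries and at 103, 121, 159.7 and 96.2 CPM in the Elf5-negative ones. The Elf5-positive values lay inside the Elf5-negative range, and the log2 fold change was 0.08 (SE 0.26, 95% interval -0.52 to 0.68; edgeR adjusted p = 0.926).

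S100a8 and S100a9, the chains of calprotectin, which neutrophils release and which binds zinc and calcium, were the least abundant of the 10. S100a8 was at 5.94 and 2.21 CPM in the Elf5-positive libraries and at 3.01, 4.22, 9.80 and 2.98 CPM in the Elf5-negative ones, on 29 to 482 counts a library. Its log2 fold change was -0.31 (SE 0.65, 95% interval -1.81 to 1.20), the widest interval of the 10. S100a9 was at 1.98 and 3.08 CPM in the Elf5-positive libraries and at 2.66, 2.30, 3.93 and 3.29 CPM in the Elf5-negative ones, on 32 to 193 counts. Its log2 fold change was -0.27 (SE 0.44, 95% interval -1.28 to 0.75). The groups overlapped for both genes, and these intervals leave room for differences in either direction. The smallest difference that these libraries could detect was not computed.

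The chains did not keep a fixed ratio. Per kilobase, S100a8 stood to S100a9 as 2.26 and 0.539 in the Elf5-positive libraries and as 0.851, 1.38, 1.88 and 0.682 in the Elf5-negative ones. The spread within each sort was wider than the difference between them, which was -0.01 on the log2 scale (exact permutation p = 1). Neutrophils, the usual source of both, carry the CD45 that the sort stained for. Of 16 neutrophil markers 0 passed in edgeR (1 higher and 0 lower at an unadjusted p below 0.05, Ltf) and 7 fell under the low-count filter. Ly6g took 0 to 6 counts a library, Camp 0 to 3, Ngp 0 to 4 and Fcnb 0 to 1. The summed neutrophil markers were 71.1 and 158 CPM in the Elf5-positive libraries and 47.4 to 75.1 CPM in the Elf5-negative ones, of which Ltf and Padi4 made up most. Ltf, which encodes lactoferrin and is also a gene of mammary epithelium, was at 113 and 52.5 CPM in the Elf5-positive libraries and 16.5 to 44.5 CPM in the Elf5-negative ones. The leukocyte gene Ptprc, which encodes CD45, was at 3.24 and 6.02 CPM against 3.97 to 14.6 CPM. The sum of 8 macrophage markers was 258 and 95.4 CPM in the Elf5-positive libraries and 105 to 516 CPM in the Elf5-negative ones. Of these, Lyz2 was at 99.6 and 23.4 CPM against 25.4 to 266 CPM, and 0 of the 8 passed in edgeR. Transcripts of leukocytes were thus present in all 6 libraries. Their part in the S100a8 and S100a9 values was not tested.

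**Figure D3:**
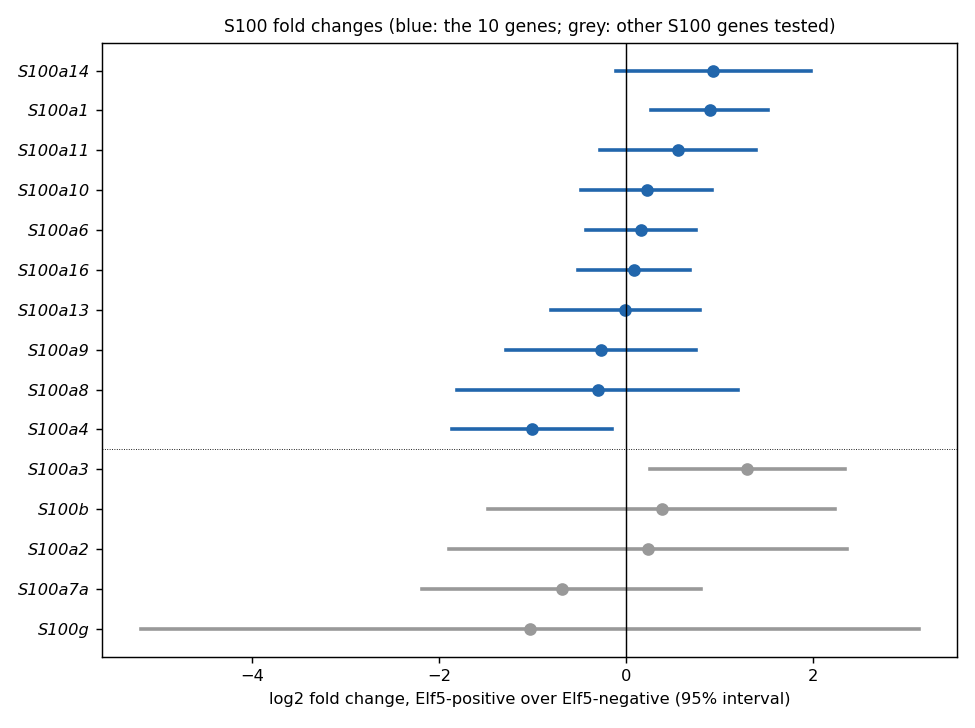
Log2 fold changes, Elf5-positive over Elf5-negative (x axis), with 95% intervals (bars) for the 10 S100 genes (blue) and 5 other S100 genes that could be tested (grey). The intervals of S100a1 and S100a4 among the blue genes, and of S100a3 among the grey ones, do not cross 0, but none of the 15 genes passed after adjustment over all genes.

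Levels can be set side by side only per length. Per kilobase of merged exons, S100a6 had the highest median over the 6 libraries (745 CPM per kilobase), followed by S100a11 (581), S100a10 (304), S100a4 (75.4), S100a16 (75.1), S100a1 (59.9), S100a13 (49.3), S100a14 (36.5), S100a9 (5.50) and S100a8 (5.21). The ranges of neighbours in this order were apart in 3 places. These lay between S100a11 and S100a10, where the lowest S100a11 value of 501 stood just above the highest S100a10 value of 488, between S100a10 and S100a4, and between S100a14 and S100a9. All other neighbours overlapped over the 6 libraries. By the length of the longest transcript S100a16 stood above S100a4 and S100a8 above S100a9. By that length S100a10 had a median of 539 (458 to 863) and overlapped S100a11, and S100a14 (14.3 to 67.3) overlapped S100a8 (4.43 to 19.7), so that of the 3 gaps only the one below S100a10 was left.

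The members shared a pattern over the Elf5-negative libraries. Elf5-negative library 3 was the highest of the 4 in 10 of the 10 genes, whereas it was the highest in 22.5% of all genes tested. With plain library totals in place of TMM factors it was the highest in 9 of the 10. This library also held the largest fibroblast sum, and the highest epithelial sum of the 4. The pattern was noticed in these values and was not tested. Elf5-positive library 1 was above library 2 in 8 of the 10 genes, against 50.7% of all genes.

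The T2 libraries that share a title number can be set side by side. Elf5-positive library 1 over Elf5-negative library 2 had log2 ratios of 1.39 for S100a1, 1.02 for S100a14, 1.00 for S100a11 and -0.76 for S100a4. Elf5-positive library 2 over Elf5-negative library 4 had log2 ratios of 1.02 for S100a1, 1.07 for S100a14, 0.12 for S100a11 and -1.15 for S100a4. S100a1, S100a14 and S100a4 thus lay to the same side in both couples by similar amounts, and S100a11 kept its sign but not its size. The ratios of S100a6 (0.23 and 0.11), S100a13 (0.41 and 0.07), S100a16 (0.12 and 0.35) and S100a9 (-0.22 and -0.10) also kept their sign. Those of S100a8 (0.49 and -0.43) and S100a10 (0.66 and -0.20) did not. The share of all genes that kept their sign was not computed, and the same libraries gave the fold changes above. Each library stands here for 1 value, with no replicate.

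**Figure D4:**
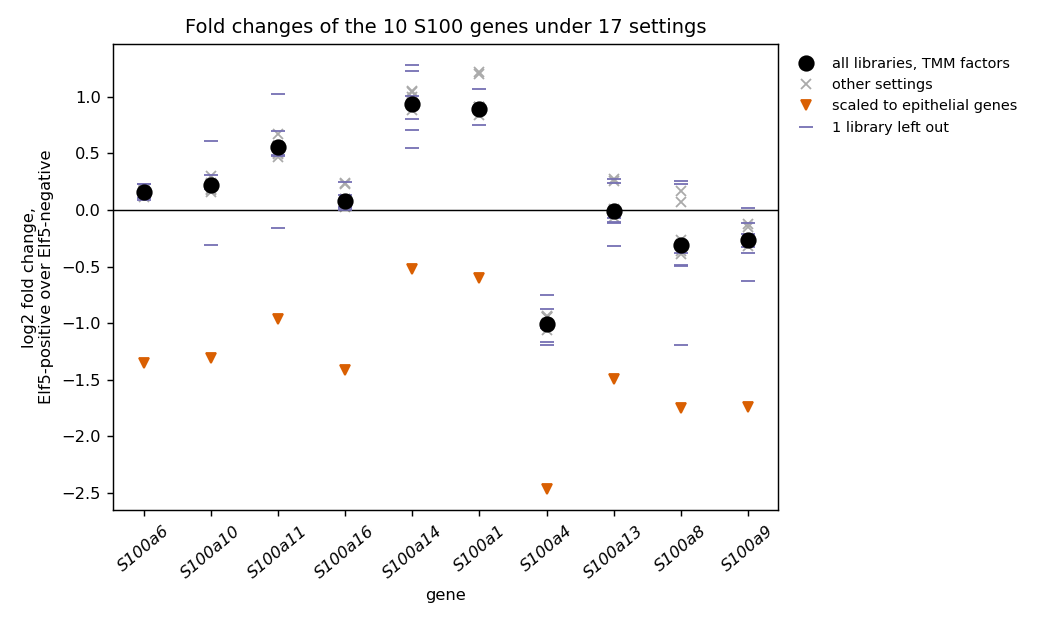
Log2 fold change of each of the 10 S100 genes (y axis) with all libraries and TMM factors (black), with 1 library left out (dashes), with libraries scaled to epithelial genes (orange) and under other settings (grey crosses), 17 settings in all. Outside the epithelial scaling, S100a1 stays between 0.75 and 1.22, S100a4 between -1.20 and -0.75 and S100a14 between 0.55 and 1.28, while S100a8, S100a9, S100a10, S100a11 and S100a13 cross 0.

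Of 8 other S100 genes looked for, 7 were in the table and 5 could be tested, and none was called in edgeR (1 higher at an unadjusted p below 0.05). This was S100a3, a member known from hair cuticle, at 5.29 and 4.92 CPM in the Elf5-positive libraries and at 1.29, 2.81, 1.61 and 2.67 CPM in the Elf5-negative ones. Both Elf5-positive libraries were above all Elf5-negative ones, with a log2 fold change of 1.30 (SE 0.45, edgeR adjusted p = 0.183). It passed with DESeq2 (adjusted p = 0.0373), and its log2 fold change was -0.23 when scaled to epithelial genes. S100b, a gene of glia, was at 0.967 and 6.97 CPM in the Elf5-positive libraries and at 1.36 to 5.11 CPM in the Elf5-negative ones. S100a7a, or koebnerisin, ran from 0.832 to 4.44 CPM over the 6 libraries, S100a2 and S100g were at 1.07 CPM or less, S100a5 took at most 2 counts and S100z took 0 counts in every library.

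Of 15 genes that encode binding partners of S100 proteins or belong to the plasminogen system that S100a10 serves, 14 could be tested, 1 fell and 0 rose. This was Plat, which encodes tissue plasminogen activator. Plat was at 91.5 and 79.3 CPM in the Elf5-positive libraries and at 349, 316, 417 and 290.0 CPM in the Elf5-negative ones. The groups were far apart, with a log2 fold change of -2.01 (SE 0.27, edgeR adjusted p = 0.0121). The call was lost without Elf5-positive library 2 (-1.91), a fit that left 1 library in its group. It was also lost in the T2 libraries alone (-1.82, edgeR adjusted p = 0.116), where 0 genes were called higher and 0 lower. With the title number as a block in those T2 libraries Plat passed (-1.82, edgeR adjusted p = 0.00495). Plau, the urokinase gene, and Plaur, its receptor gene, had log2 fold changes of -1.92 (SE 0.65, adjusted p = 0.166) and -1.01 (SE 0.34, adjusted p = 0.164) in edgeR, and did not pass. Plau passed with DESeq2 (adjusted p = 0.0226) and in edgeR with no low-count filter (adjusted p = 0.0323). The remaining partners did not pass, with log2 fold changes from -1.49 for Il1a and -0.91 for Fgf1, the cargo genes of S100a13, to 0.31 for Trp53.

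Of 8 genes for S100 receptors and their signalling 0 passed in edgeR, 0 of them at an unadjusted p below 0.05. Ager, which encodes the receptor RAGE, was at 13.1 and 4.05 CPM in the Elf5-positive libraries and at 2.24 to 9.74 CPM in the Elf5-negative ones. The log2 fold change of Tlr4, the receptor of calprotectin on myeloid cells, was -0.67 (SE 0.49), and that of Bsg, which encodes basigin, was 0.25 (SE 0.28). Cd36, a fatty acid receptor that also binds calprotectin, had one of -2.02 (SE 0.89, edgeR adjusted p = 0.307).

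For 4 members the genes whose log2 CPM ran most alike over the 6 libraries were looked up among 12311 protein-coding genes. They were Hmgcll1, Prmt2 and Smim3 for S100a4, with Pearson r from 0.982 to 0.987. For S100a6 they were Megf6, Perp and Rpl13a (0.987 to 0.991), for S100a9 Cog5, Usp14 and Lnpep (0.985 to 0.987), and for S100a14 Banf1, Tspan14 and F13a1 (0.988 to 0.991). With 6 libraries, between 89 and 220 genes had an r above 0.9 with each of these members, so these likenesses are descriptions of the 6 values only. None of the 12 genes passed between the sorts in edgeR.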

How the data were processed

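RNA-seq libraries of 2 Elf5-positive and 4 Elf5-negative sorted populations were analysed. The authors deposited whole-number estimated counts (expected counts) per Ensembl gene, and the submitters' processing notes name Salmon and GRCm38.p5. Which Salmon version, annotation release and rounding were used is not given in the sources here. Salmon shares reads between similar transcripts by model.

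Symbols were matched for 52220 of 52325 IDs, and where a symbol belonged to several IDs the most abundant took it, leaving 77 under their ID. Positions and lengths came from GENCODE M21 (GRCm38). Genes were filtered with filterByExpr, scaled with TMM factors and tested with edgeR 4.0.16 (quasi-likelihood, no block, Benjamini-Hochberg over 20684 genes) in R 4.3.3. The test was tried on simulated counts. Standard errors are the log2 fold change over the root of F, and 95% intervals use the t quantile. Alternatives included DESeq2 1.42.0 and limma-voom 3.58.1. Figures used matplotlib 3.10.9 in Python 3.11.15.

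The genes to name were all 10 S100 genes, every tested gene of the lists of other S100 genes, partners and receptors, neighbours with the smallest p (at most 4), and the 3 most alike genes for 4 members (average log2 CPM of at least 1, prior count 2). Of a marker list up to 4 genes of smallest p could be named. Padi4, Fbln2, Pdgfra and the neutrophil genes under the filter (Ly6g, Camp, Ngp, Fcnb) were named outside this rule, after their values were seen. Elf5 was named as the check of the sort. The members and lists were chosen with earlier results of these data known. Gene lists held 14 fibroblast, 16 neutrophil, 8 macrophage and 20 epithelial genes. The shallowest library, with 9106660 counts, limits the precision of S100a8 and S100a9, where 1 count is worth 0.103 CPM.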

Additional observations from a re-analysis of the deposited data

Results flagged for a closer look

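Among 37 genes, 5 had an Elf5-negative library that stood away from the other 3 (its distance from the closest, divided by the range of all 4, was above 0.829). For independent, normally distributed values this cut-off flags about 1 in 20 such groups. The CPM were not checked for such a distribution and the 37 genes share the same 4 libraries, so this rate need not hold here. S100a10 was at 454 CPM in Elf5-negative library 3, where the nearest of the other 3 was at 375 CPM. S100a13 was at 64.3 CPM in the same library, where the nearest was at 37.0 CPM. Il1a, which encodes interleukin 1 alpha, reached 25.9 CPM in Elf5-negative library 1, with no more than 6.30 CPM elsewhere in that sort. Cybb, of the phagocyte oxidase, was at 15.8 CPM in the same library and no higher than 5.23 CPM elsewhere in that sort. Plaur was at 97.6 CPM in Elf5-negative library 2, where the nearest was at 64.6 CPM.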

How the results depend on the processing

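Besides the settings of the report, 16 others were tried. In all but 2 of them 0 of the 10 S100 genes passed, and these 2 were the scaling to epithelial genes (7 lower) and the T2 libraries with the title number as a replicate block (2 higher, S100a1 and S100a14, and 1 lower, S100a4). In that T2 fit 2.83% and 7.05% of all genes were called higher and lower, and the adjusted p was 0.0157 for S100a1, 0.0134 for S100a14 and 0.0329 for S100a4. Plat (-1.82, adjusted p = 0.00495), Plau (-1.77, adjusted p = 0.0045), Plaur (-1.18, adjusted p = 0.0125) and Cd36 (-1.38, adjusted p = 0.0407) also passed in that edgeR fit. It rests on 2 pairs of libraries. Libraries that share a number and the code T2 deviated together from their group means (r of 0.60 and 0.69 over 13769 genes). The 2 Elf5-positive libraries deviate from their mean by equal and opposite amounts, so both r values rest on the same Elf5-positive difference. Those of T2 libraries with unlike numbers (-0.60 and -0.69) follow from them. The labels do not say that the number pairs the libraries. Same-numbered T1 libraries correlated less with Elf5-positive ones (0.17 and -0.01).

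Among all genes, 121 were called higher and 783 lower, against 18 and 12551 when scaled to epithelial genes, 273 and 1331 with no low-count filter, 436 and 1763 with DESeq2 and 549 and 1368 when the block was fitted to T2 libraries. With the block in all libraries 252 were higher and 1011 lower. Without a block, edgeR called 0 and 0 in T2 libraries (469 and 1463 at an unadjusted p below 0.05). With 1 library left out, 25 to 133 were higher and 197 to 811 lower. The counts that moved most were 39 and 197 without Elf5-positive library 2, 25 and 249 with Elf5-negative library 1 removed, 43 and 338 with library 3 of that sort removed and 48 higher with its library 2 removed. An Elf5-positive library left alone in its group was assumed to vary like the others.

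Log2 fold changes that turned below 0 when scaled to epithelial genes were S100a1 (-0.60), S100a6 (-1.35), S100a10 (-1.30), S100a11 (-0.96), S100a14 (-0.52), S100a16 (-1.41), S100a2 (-1.13), S100a3 (-0.23), S100b (-1.01), Anxa1 (-1.44), Cacybp (-1.43), Sugt1 (-1.285), Trp53 (-1.25), Ager (-0.93) and Bsg (-1.29). This scaling lowers all genes by construction. In the T2 libraries without and with the block S100a8 was at 0.17 and 0.071, S100a13 at 0.27 and 0.25, Anxa6 at 0.16 and 0.16 and Fgf1 at 0.77 and 0.79. With the block there, S100a2 was at -0.072 and Tlr4 at 0.011. S100a13 was at 0.0087 with the block in all libraries and at 0.00092 with at least 1 CPM in at least 2 libraries. S100b was at -0.0026 with limma-voom and at -0.0082 with the block, and Anxa1 at -0.010 with no filter. The cause was not tested.

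With 1 library left out, ranges that crossed 0 were -1.19 to 0.25 for S100a8, -0.62 to 0.016 for S100a9, -0.31 to 0.61 for S100a10, -0.16 to 1.03 for S100a11 and -0.32 to 0.28 for S100a13. They were -0.85 to 0.81 for S100a2, -1.66 to 1.19 for S100b, -0.092 to 0.31 for Anxa1, -0.85 to 0.29 for Anxa2, -0.081 to 0.065 for Anxa6 and -0.48 to 0.031 for Anxa11. They were -0.55 to 0.24 for Ahnak, -0.38 to 0.025 for Myh9, -0.094 to 0.26 for Cacybp and -0.40 to 1.30 for Ager. The log2 ratio of S100a8 to S100a9 ran from -1.04 to 1.03 and that of S100a11 to Anxa1 from -0.24 to 0.92.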
